A study of Mus musculus with 4 samples.

Results

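Accessible chromatin around Pdcd1 and Tox was examined in mouse CD8+ T cells as 15 merged DNase I sites out of 38986 in the whole data set. Sites were taken by position on mm9. A peak belonged to Pdcd1 when its midpoint lay in chr1:95890000-96000000, a window of 110 kb around a gene span of about 95.935 to 95.949 Mb. It belonged to Tox when its midpoint lay in chr4:6580000-6980000, a window of 400 kb around a gene span of about 6.614 to 6.918 Mb. The 4 deposited peak lists placed 33 peaks there, of 84735 in all, and peaks that overlapped by at least 1 bp were merged into a site. The Pdcd1 window held 4 sites and the Tox window 11.

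Naive splenic CD8+ T cells, sorted as GFP+ TCRbeta+ CD62Lhi CD44lo-med, were cultured with IL-7 plus IL-15 for 72 h. Both cytokines keep resting T cells alive when no antigen is present. The cells were then opened and exposed to DNase I, which cuts DNA where chromatin is open, and the DNA set free was sequenced. All mice carried hCD2-Cre, a Cre recombinase driven by the human CD2 promoter in lymphocytes, and Rosa26-lsl-GFP, a reporter that Cre switches on. Wild-type mice (WT, 2 libraries) had unmodified Tcf1 and Lef1 genes, and Tcf1-/-Lef1-/- mice (DKO, 2 libraries) had floxed copies of both, so that DKO cells lost these related DNA-binding proteins in the T lineage. The age of the mice and whether replicates came from separate mice are not given, so their spread may be purely technical. Exact permutation of 2 libraries against 2 gives a two-sided p of 0.33 at the least, so no comparison between genotypes can pass 0.05.

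Pdcd1 encodes PD-1, an inhibitory receptor that T cells put on their surface after antigen signals and keep when they become exhausted. Its transcription is known to answer to NFAT, AP-1 and STAT factors acting at the promoter and at distal elements on both sides of the gene, and CTCF, a protein that anchors chromatin loops, is known to bind near its flanks. Tox encodes an HMG-box nuclear protein that is needed for T cell development in the thymus and that installs the exhausted state under lasting antigen. Tcf1, the product of Tcf7, marks the self-renewing cells among exhausted T cells. The cells studied here had seen cytokines and not a deliberate antigen stimulus.

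The peak lists differed in length, from 11073 and 17521 peaks in WT replicates 2 and 1 to 21353 and 34788 in DKO replicates 2 and 1. The lowest local background, which follows read depth where no control library sets it, was 1.47 to 1.50 fragments per position in WT and 1.15 to 1.23 in DKO. Both DKO libraries had peaks on chromosome Y (55 and 57) and neither WT library had any, so whatever set the Y calls apart cannot be told apart from genotype in any comparison here. Genes that mark CD8+ T cells and other spleen cells were not checked, because no gene annotation of mm9 was used.

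Neither gene was bare of open sites, but most of the sites lay away from the gene starts. The Pdcd1 sites lay at about 17.1 kb past the gene start, 0.172 kb before it, 26.9 kb before it and 39.6 kb before it, with the start taken at 95.949 Mb, the upper end of the gene span, because the gene is read towards lower coordinates. These distances are good to about 1 kb. None had its midpoint between the rounded gene ends. At Tox, which is read in the same direction, 10 of the 11 sites lay inside the gene and the remaining site lay 4.57 kb beyond its 3′ end. No library had a peak at the Tox start, and the nearest peak edge was about 40.2 kb away, inside the gene.

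**Figure D1:**
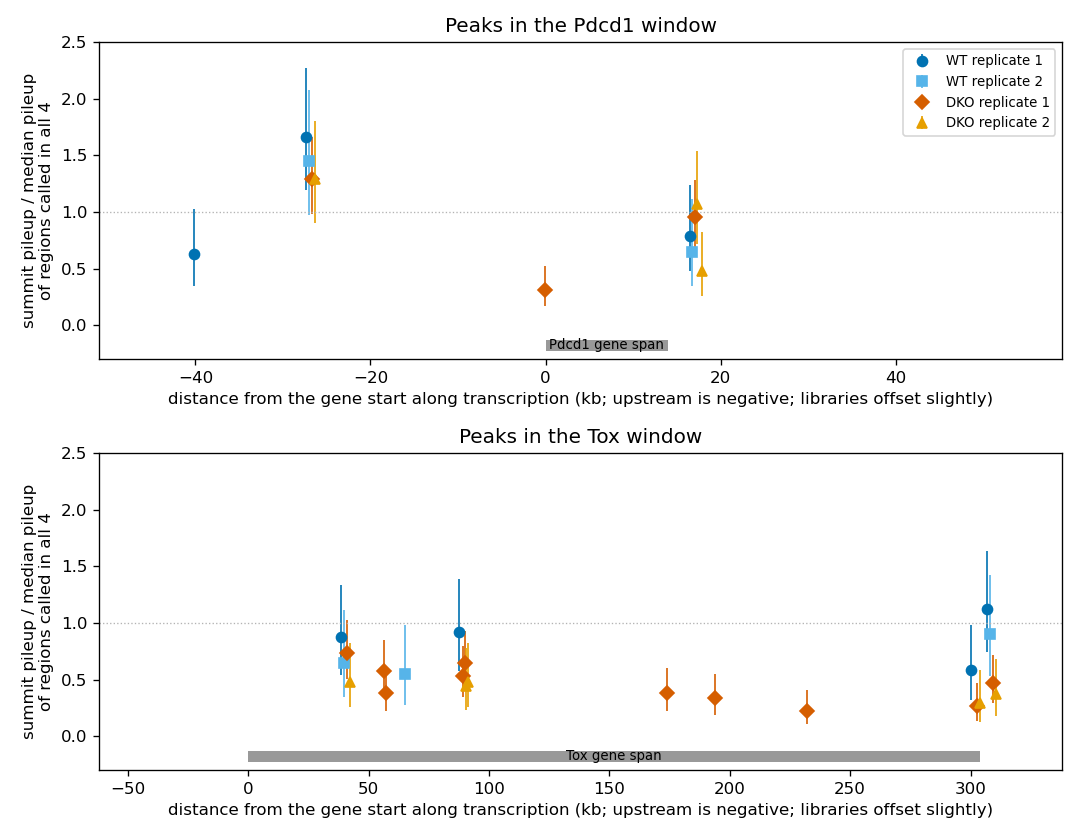
Peaks in the Pdcd1 window (top) and the Tox window (bottom), by distance of the summit from the gene start in kb (horizontal) and by summit pileup divided by the library's median pileup over the 8068 regions called in all 4 libraries (vertical, bars are exact 95% Poisson intervals of the pileup). The tallest points, between 1.29 and 1.67, are those of the upstream Pdcd1 site, and the Tox gene start has no peak in any library.

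The fragment pileup at each summit was solved from the authors' fold enrichment and p, and it gives the number of fragments behind a value. To set libraries beside each other, a pileup was divided by the median pileup over the 8068 regions called in all 4 libraries, which was 24 fragments for WT replicate 1, 20 for WT replicate 2, 45 for DKO replicate 1 and 27 for DKO replicate 2. The quotient is called the relative pileup. Fewer cells with an open site and less cutting per cell both lower it and cannot be told apart. Fold enrichments were likewise ranked within a library among those same 8068 regions, as a percentile, since ranks over whole lists of unequal length cannot be compared. Intervals on pileups are exact Poisson 95% intervals and cover counting error only.

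Of the 15 sites, 4 (26.7%) were called in all 4 libraries, beside 20.7% of all regions. They were a site in the 3′ flank of Pdcd1, a site upstream of Pdcd1, a site in the 3′ flank of Tox and a site in the part of the Tox gene nearest its start. Only 1 site, in Tox, was called in both DKO libraries and neither WT library, 6.67% of the sites beside 14.3% of all regions. No site was called in both WT libraries and neither DKO library, beside 0.631% of all regions. A further 2 Tox sites (13.3% of the 15) were called in all libraries but WT replicate 2, beside 11.6% of all regions. In a single library 8 sites (53.3%) were called, beside 41.7% of all regions. Of these, 6 (40% of the 15) were in DKO replicate 1, the longest list, beside 31.6%. These counts are small and are not read as a property of the 2 genes.

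The strongest site of either gene lay upstream of Pdcd1, at chr1:95975755-95975954, 200 bp wide. It stood between Pdcd1 and the next protein-coding gene on that side, Fam174a, by gene order in GRCm38.p6. Its fold enrichment was 12.7 in WT replicate 1, 9.82 in WT replicate 2, 17.7 in DKO replicate 1 and 13.5 in DKO replicate 2. It stood in the top 2.47%, 6.76%, 5.41% and 8.46% of those lists by p, in the same order, and no other peak of either window reached the top 10% of a list. The summit pileup was 40 fragments (28.6 to 54.5) in WT replicate 1, 29 (19.4 to 41.6) in WT replicate 2, 58 (44.0 to 75.0) in DKO replicate 1 and 35 (24.4 to 48.7) in DKO replicate 2.

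Relative to the shared regions this upstream site was slightly lower in DKO. Its fold percentile was 96.2 and 92.6 in WT replicates 1 and 2, against 84.4 and 86.0 in DKO replicates 1 and 2. The groups did not overlap, at 94.4 ± 2.57 in WT and 85.2 ± 1.09 in DKO (SD, n = 2 each), a difference of -9.21 points. Of the regions called in all 4 libraries, 19% also had both WT percentiles above both DKO percentiles, so the order by itself was common. A difference this low or lower was found at 29.3% of those regions. The relative pileups of 1.67 and 1.45 in WT and of 1.29 and 1.30 in DKO had overlapping counting intervals. Both WT relative pileups exceeded both DKO values at 22.9% of the regions called in all 4 with a solved pileup.

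The summit of the upstream Pdcd1 site did not lie at the same base in the genotypes. It was at position 95975895 in WT replicate 1 and 95975892 in WT replicate 2, but at 95975799 in DKO replicate 1 and 95975808 in DKO replicate 2. Replicates thus agreed within 3 bp in WT and 9 bp in DKO, while the genotypes were 84 bp apart at the nearest, in a region of 200 bp. A gap between genotypes of this size or larger was found at 1.95% of the regions called in all 4 libraries. The DKO summits lay on the side nearer to Pdcd1.

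The site in the 3′ flank of Pdcd1, at chr1:95931539-95932182, was 644 bp wide and lay 2.82 kb beyond the 3′ end of the gene, on the side of Neu4, the next protein-coding gene by order in GRCm38.p6. Its fold enrichment was 5.45 and 4.48 in WT replicates 1 and 2, below the median of each list (6.43 and 6.13). It was 11.8 and 9.87 in DKO replicates 1 and 2, above the median of each (8.50 and 7.24). These lists differ in length, so their medians are not alike. Over the regions called in all 4, the medians were 7.51 and 6.61 in WT and 13.2 and 9.59 in DKO. Against those, only DKO replicate 2 was above. The summit pileup was 19 fragments (11.4 to 29.7) in WT replicate 1 and 13 (6.92 to 22.2) in WT replicate 2. It was 43 (31.1 to 57.9) in DKO replicate 1 and 29 (19.4 to 41.6) in DKO replicate 2.

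This flank site ranked higher in both DKO libraries than in both WT libraries. The fold percentile was 13.0 and 5.36 in WT replicates 1 and 2, against 36.2 and 53.2 in DKO replicates 1 and 2. The means were 9.16 ± 5.37 in WT and 44.7 ± 12.0 in DKO (SD, n = 2 each), a difference of 35.6 points, and leaving out each library in turn gave 29.1 to 44.2. Both DKO percentiles exceeded both WT percentiles at 19.1% of the regions called in all 4, and a difference as high or higher was found at 3.38% of them. The relative pileup was 0.792 and 0.65 in WT against 0.956 and 1.07 in DKO, or 0.50 on the log2 scale. The counting intervals of the libraries overlapped. Both DKO relative pileups exceeded both WT values at 21% of the regions called in all 4 with a solved pileup.

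Peak widths at the 3′ flank site overlapped between genotypes. The WT peaks spanned 326 and 194 bp, the DKO replicate 1 peak spanned 644 bp, and DKO replicate 2 had a peak of 251 bp and a second, weaker peak of 110 bp beside it with 13 fragments at its summit. Summits of WT replicate 2 and of the main DKO peaks fell between 95932132 and 95932151, and that of WT replicate 1 fell at 95932025, so the summits did not separate the genotypes.

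At the Pdcd1 start a peak was called in DKO replicate 1 only, at chr1:95949109-95949235, with a fold of 5.19 and a summit pileup of 14 fragments (7.65 to 23.5). In that list it stood in the weakest part, inside the top 85.7% by p. Its relative pileup was 0.311. The same relative pileup would be 7.47 fragments in WT replicate 1, 6.22 in WT replicate 2 and 8.40 in DKO replicate 2. The 5th percentile of the listed pileups was 11, 11 and 10 fragments in those libraries, so a site this weak fell under the 5th percentile in each of them. The 250 bases before the annotated start of Pdcd1 are shown because this peak lies at the start. They come from RefSeq, build GRCm38.p6, chr1:94052554-94052803 on the minus strand, and not from mm9, so the peak could not be placed base by base on them.

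Pdcd1 promoter: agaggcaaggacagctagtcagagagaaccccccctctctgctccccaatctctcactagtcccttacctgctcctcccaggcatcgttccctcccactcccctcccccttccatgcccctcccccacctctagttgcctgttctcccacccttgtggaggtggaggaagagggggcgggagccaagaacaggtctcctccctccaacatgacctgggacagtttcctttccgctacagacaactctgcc

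The Pdcd1 promoter was rich in G and C, at 60.4% beside a median of 52.4% over 32851 promoter stretches of the same length. Letters of 6 factor motifs were searched on both strands and none was found in it, so no base is in capitals. The motifs, with the share of all promoter stretches that hold each, were CTTTGA for TCF/LEF (13.8%), TGGAAA for NFAT (18.6%), TGANTCA for AP-1 (6.75%), TTCNNNGAA for STAT (7.02%), TGTGGT for RUNX (14.0%) and the CTCF core motif (2.07%). A missing match says only that these letters are not in these 250 bases. Tox had no entry among the promoter sequences.

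The last Pdcd1 site, at chr1:95988553-95988654, was called in WT replicate 1 only, with a fold of 6.40 and 15 fragments (8.40 to 24.7) at its summit. Its relative pileup of 0.625 would be 28.1 fragments in DKO replicate 1 and 16.9 in DKO replicate 2, above the 5th percentile of 10 fragments in both. In WT replicate 2 it would be 12.5 fragments, beside a 5th percentile of 11. None of these libraries listed it. The counting interval of the relative pileup, 0.350 to 1.03, reached below the 5th percentile of DKO replicate 2, 0.370 on this scale. The site was included only because WT replicate 1 listed it, so its value there was a selected one. Whether it was less open in DKO could not be read from the lists.

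The largest difference between genotypes among the 4 fully shared sites lay in the 3′ flank of Tox, at chr4:6609194-6609435, between Tox and Nsmaf by gene order in GRCm38.p6. The fold enrichment was 10.3 in WT replicate 1, 7.33 in WT replicate 2, 7.71 in DKO replicate 1 and 5.12 in DKO replicate 2. The summit pileup was 27 fragments (17.8 to 39.3) and 18 (10.7 to 28.4) in WT replicates 1 and 2, and 21 (13.0 to 32.1) and 10 (4.80 to 18.4) in DKO replicates 1 and 2. Read by fold alone the libraries overlap, because folds ran higher in DKO across the shared regions, with medians of 13.2 and 9.59 in DKO and 7.51 and 6.61 in WT.

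Ranked by fold among the shared regions, this Tox site was in the upper part in WT and near the bottom in DKO. The fold percentile was 86.5 and 65.0 in WT replicates 1 and 2, against 6.20 and 3.37 in DKO replicates 1 and 2. The means were 75.8 ± 15.2 in WT and 4.79 ± 2.0 in DKO (SD, n = 2 each), a difference of -71.0 points. Leaving out each library in turn gave -80.1 to -61.0, and ranking by p gave -61.6. By p the percentile was 76.2 in WT replicate 1 but 53.6, near the middle, in WT replicate 2. In DKO replicates 1 and 2 it was 4.54 and 2.16. A difference as low or lower was found at 0.124% of the regions called in all 4 libraries, while 19% of them had both WT percentiles above both DKO percentiles. The relative pileup was 1.125 and 0.90 in WT but 0.467 and 0.370 in DKO, and so fell by 1.28 on the log2 scale. Both WT relative pileups exceeded both DKO values at 22.9% of the regions called in all 4 with a solved pileup. The smallest relative pileup listed was 0.417 in WT replicate 1 and 0.45 in WT replicate 2. The 0.370 of DKO replicate 2 lay under both minima, so any listed WT value had to exceed it. The 0.467 of DKO replicate 1 lay above both minima. The counting interval of WT replicate 1 (0.741 to 1.64) lay above those of DKO replicates 1 (0.289 to 0.713) and 2 (0.178 to 0.681), but that of WT replicate 2 (0.533 to 1.42) overlapped both. The site was singled out from the 4 after its values were seen.

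**Figure D2:**
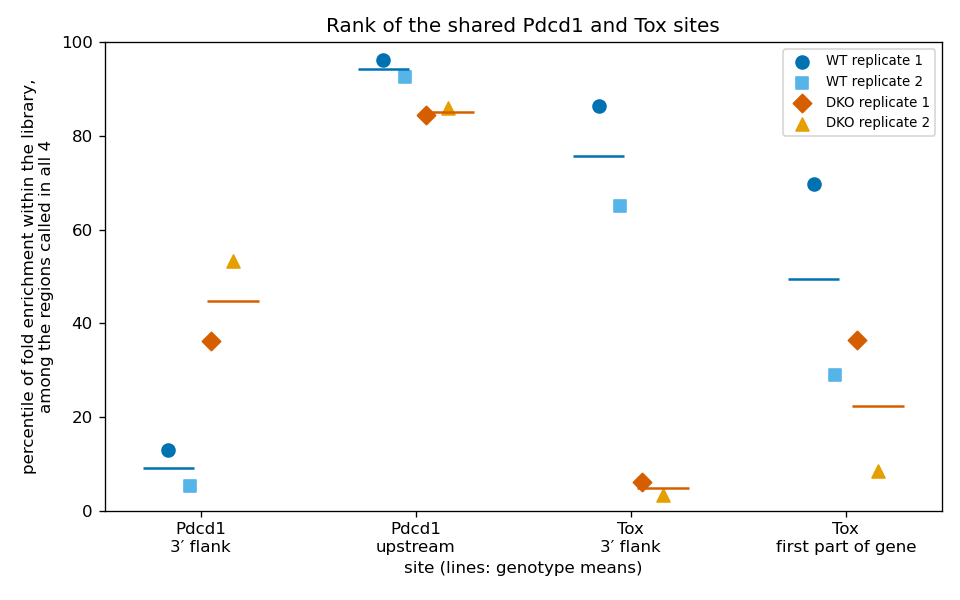
Percentile of fold enrichment (vertical) of the 4 Pdcd1 and Tox sites called in every library, ranked within each library among the 8068 regions called in all 4; points are libraries and lines are the means of 2 libraries. The Tox 3′ flank site sits at 86.5 and 65.0 in WT but at 6.20 and 3.37 in DKO, the Pdcd1 3′ flank site is higher in both DKO libraries, and the site in the first part of the Tox gene overlaps between genotypes.

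At the Tox 3′ flank site too the summits lay apart. They were at 6609360 and 6609326 in WT replicates 1 and 2, but at 6609260 and 6609240 in DKO replicates 1 and 2. The nearest WT and DKO summits were 66 bp apart, while replicates differed by 34 bp in WT and 20 bp in DKO. A gap between genotypes of this size or larger was found at 2.94% of the regions called in all 4. A gap of at least 50 bp, a value set after the summits were seen, was found at 4.29% of those regions and at 2 of the 4 sites described here.

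**Figure D3:**
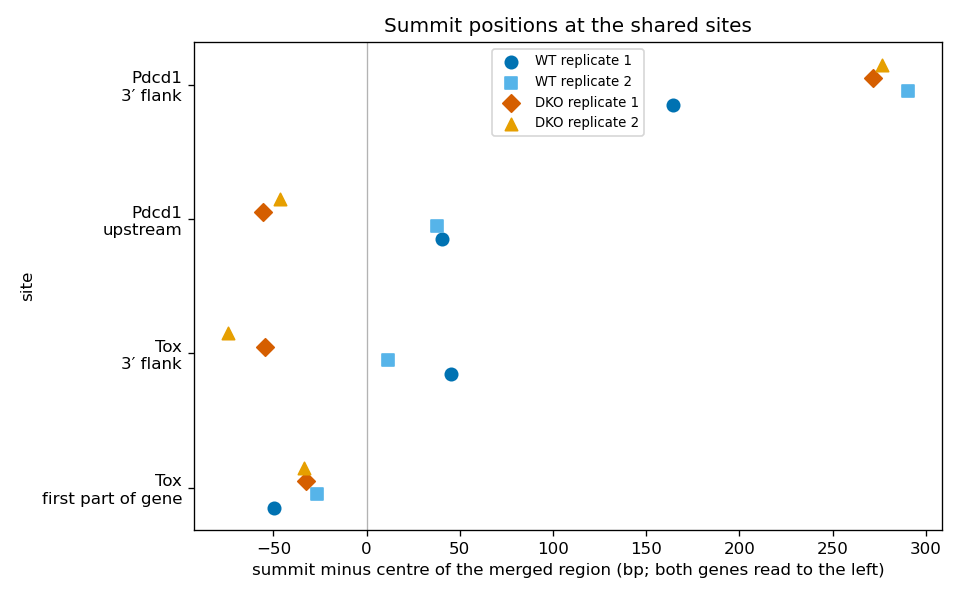
Summit position of each library (horizontal, bp from the centre of the merged region) at the 4 sites called in every library (rows). WT and DKO summits are separated by 84 bp at the upstream Pdcd1 site and by 66 bp at the Tox 3′ flank site, and are mixed at the other sites.

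The shared site inside Tox, at chr4:6877532-6877775, lay 40.3 kb past the gene start and was the site nearest to it. The fold enrichment was 8.80 and 5.68 in WT replicates 1 and 2, against 11.8 and 5.95 in DKO replicates 1 and 2, and the summit pileup was 21, 13, 33 and 13 fragments in the same order. Its fold percentile was 69.8 and 28.9 in WT but 36.4 and 8.42 in DKO. The groups overlapped, at 49.4 ± 29.0 and 22.4 ± 19.8 (SD, n = 2 each). The difference of -27.0 points was smaller than the WT spread, and it came to -6.58 without WT replicate 1, -11.3 without DKO replicate 2, -44.7 without WT replicate 2 and -40.8 without DKO replicate 1. The summits lay within 23 bp of each other over all 4 libraries.

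A pair of neighbouring sites lay farther into the gene, 89.3 and 88.5 kb past its start and 557 bp apart. The first, chr4:6828563-6828803, was called in 3 libraries, with 22 fragments and a fold of 8.14 in WT replicate 1, 29 fragments and 8.62 in DKO replicate 1, and 13 fragments and 5.42 in DKO replicate 2. The relative pileup was 0.917 in WT replicate 1 and 0.644 and 0.481 in DKO replicates 1 and 2. WT replicate 2 did not list this first site, so its value is unknown. On this scale the 5th percentiles of listed peaks were 0.458 and 0.55 in WT replicates 1 and 2. They were 0.222 and 0.370 in DKO replicates 1 and 2. A low value was thus less likely to be listed in WT, and the order is not read as a difference between genotypes. The second, chr4:6829361-6829605, was the 1 site called in both DKO libraries and neither WT library. It had 24 fragments (15.4 to 35.7) and a fold of 7.33 in DKO replicate 1, and 12 fragments (6.20 to 21.0) and a fold of 5.17 in DKO replicate 2.

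Whether the second site of this pair was less open in WT could not be read from the lists. Its relative pileup of 0.533 and 0.444 in DKO replicates 1 and 2 would be 12.8 and 10.7 fragments in WT replicate 1, and 10.7 and 8.89 in WT replicate 2. The 5th percentile of listed pileups was 11 fragments in each WT library. Both DKO peaks also had a fold below the median of their own list.

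Near the 3′ end, inside the gene, a weak site at chr4:6615892-6616083 was called in every library except WT replicate 2. It had 14 fragments in WT replicate 1, 12 in DKO replicate 1 and 8 in DKO replicate 2, the last of these the smallest pileup in that list. The relative pileup was 0.583 in WT replicate 1 and 0.267 and 0.296 in DKO. The WT value was the higher, but a single WT library carries it. The smallest pileup listed in WT replicate 1 was 0.417 on this scale, above both DKO values. Any peak listed there had to be the higher, so the order says nothing about genotype.

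The remaining 6 Tox sites were called in a single library each, with folds of 4.87 to 8.16 and 10 to 26 fragments. WT replicate 2 alone had chr4:6852158-6852255, with 11 fragments. DKO replicate 1 alone had 5, spread from 55.7 to 231.6 kb past the start. Their relative pileups ran from 0.222 to 0.578. For 4 of these 5 the relative pileup would fall under the 5th percentile of the listed pileups in both WT libraries. The exception was chr4:6862169-6862418, with 26 fragments and a fold of 8.16, which would be 13.9 and 11.6 fragments in WT replicates 1 and 2, and 15.6 in DKO replicate 2. That site and its neighbour 539 bp away, chr4:6861385-6861629, formed a second close pair.

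**Figure D4:**
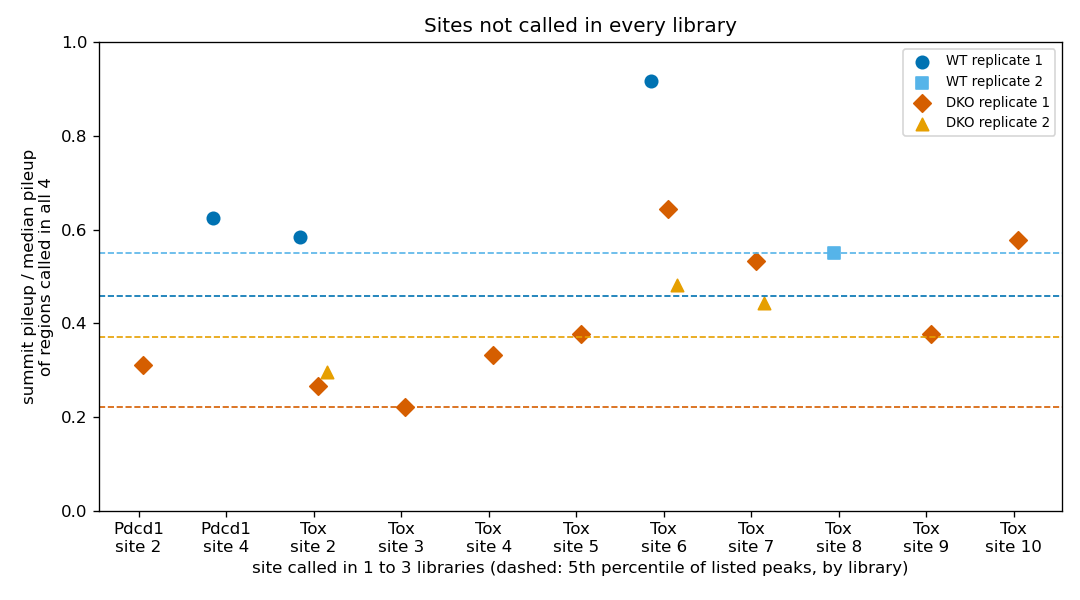
Relative pileup (vertical, summit pileup over the library's median across regions called in all 4) of the 11 sites called in 1 to 3 libraries, numbered in each window by increasing position; dashed lines mark the 5th percentile of all listed peaks in each library on the same scale, 0.458 and 0.55 for WT replicates 1 and 2 and 0.222 and 0.370 for DKO replicates 1 and 2. Most points of DKO replicate 1 lie below both WT lines.

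Counted as sites, the Pdcd1 window held 3 in WT replicate 1, 2 in WT replicate 2, 3 in DKO replicate 1 and 2 in DKO replicate 2. The 3′ flank site had 2 peaks in DKO replicate 2. Counted as peaks, the window thus held 3 and 2 in WT replicates 1 and 2, against 3 in each DKO library. The means of 2.5 ± 0.71 and 3 ± 0 (SD, n = 2 each) overlapped in range, at 0.26 on the log2 scale (two-sided exact permutation p = 1). The Tox window held 4 and 3 peaks in WT and 10 and 5 in DKO, 3.5 ± 0.71 and 7.5 ± 3.5 (SD, n = 2 each), or 1.10 on the log2 scale (two-sided exact permutation p = 0.33, the smallest possible). Without DKO replicate 1 this was 0.51.

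As a share of each list, the Tox peaks did not separate the genotypes. The Tox window held 0.0228% and 0.0271% of the peaks in WT replicates 1 and 2, against 0.0287% and 0.0234% of those in DKO replicates 1 and 2. The Pdcd1 window held 0.0171% and 0.0181% in WT replicates 1 and 2, above the 0.00862% and 0.0141% in DKO replicates 1 and 2. These Pdcd1 shares rest on 2 or 3 peaks per library, over lists that were longer in DKO. With every list held to its 11073 peaks of highest −log10 p, the length of the shortest, the direction of the peak counts turned. The Tox window then held 3 peaks in each WT library, 1 in DKO replicate 1 and 0 in DKO replicate 2, which is -2.585 on the log2 scale (two-sided exact permutation p = 0.33). The Pdcd1 value turned to -0.32. The cut removed nothing from WT replicate 2, so it does not compare the genotypes evenly. At that length the Tox 3′ flank site was called in both WT libraries and neither DKO library, beside 4.61% of all regions, no site was called in both DKO libraries and neither WT library, beside 5.75%, and the Pdcd1 3′ flank and upstream sites were still called in all 4, beside 29.3%.

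Both windows held more open sites than most windows of the same length on a grid over the autosomes. The grid was laid without regard to genes, while both windows were placed on genes. The comparison therefore does not set the 2 genes apart from other genes. The counts include sites called in a single library. Among 22444 autosomal windows of 110 kb on a fixed grid, 80.8% held fewer than the 4 sites of Pdcd1 and 56.6% held none. Among 6180 windows of 400 kb, 75.6% held fewer than the 11 sites of Tox, with a median of 2, and 36.4% held none. By sites called in all 4 libraries, 91.4% of the shorter windows and 70.0% of the longer ones held fewer than the 2 that each gene had. The windows' borders did not cut through a group of sites. The nearest region outside the Pdcd1 window was 168 kb below its lower border and 394 kb above its upper border, and for Tox these distances were 91.1 and 99.1 kb. Their highest folds were 31.9 and 6.73 at Pdcd1 and 21.5 and 4.11 at Tox. The nearest sites inside were 41.9 and 11.4 kb from the borders for Pdcd1 and 29.3 and 102.3 kb for Tox, with highest folds of 11.8 and 6.40 at Pdcd1 and 10.3 and 11.8 at Tox.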

How the data were processed

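DNase-seq peak lists of 4 libraries, 1 list per library, were analysed. The submitters' processing notes list Bowtie2 2.2.5, FastQC and MACS2 2.1.1 with build mm9. For settings, a control library and duplicate handling, nothing is given in the sources used here. The authors deposited for each peak a fold enrichment (a ratio of summit pileup plus 1 to background plus 1), the −log10 p and −log10 q, a score of 10 times the −log10 q, and the summit. Every smallest fold lay just above 4. Positions were converted to count from 1. Pileup and background were solved from fold and p for peaks with −log10 p under 250. The pileup was whole within 0.02 for 100% of them. The solution and the merging were checked on simulated peaks. Absence of a peak means only that a site was not listed. Genotype and replicate number came from the titles. Sites were named when called in at least 2 libraries, nearest the gene start or in the top 10% of a list by p, with the others by range; some of these are also named, chosen after their values were seen. The members and lists were chosen with earlier results of these data known. Lists of other exhaustion genes and of cell type markers needed an mm9 annotation and were not used here. RefSeq (GRCm38.p6) gave neighbouring genes and the promoter; both gene symbols matched the gene table and 1 of 2 the promoter table. No sequence under the mm9 peaks is shown, as no mm9 genome was used. Alternatives covered thresholds, list length, merging, the gene span and leaving out libraries. Python 3.11.15, pandas 2.3.3, numpy 2.4.6 and scipy 1.17.1 were used.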

Additional observations from a re-analysis of the deposited data

How the results depend on the processing

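Leaving out libraries for the percentiles was added after seeing the data. Merging by 50% overlap or within 500 bp changed no count. The closest neighbouring sites lay 539 and 557 bp apart, so merging within 500 bp could not have joined any of them. At a −log10 q of at least 10, Pdcd1 had 2 sites, 1 of them DKO-only and 1 called in all 4, and Tox had 5, with 0 DKO-only and 0 called in all 4. At equal list length Tox had 4 sites, 0 DKO-only, 1 WT-only and 0 called in all 4, and the log2 ratios of DKO to WT peaks reversed to -0.32 for Pdcd1 and -2.585 for Tox. Because the cut removes no peak of the shortest list, a WT list, it does not compare the genotypes evenly. Within the gene span alone, Pdcd1 had 0 sites, 0 called in all 4 and no ratio of peak numbers, and Tox had 1 site called in all 4. Ranked by −log10 p, the upstream Pdcd1 difference was -12.8 points in place of -9.21. Leaving out each library gave 3 to 4 sites, 0 to 1 DKO-only, 0 to 1 WT-only and log2 ratios of 0 to 0.58 for Pdcd1, where leaving out WT replicate 2 gave 0. It gave 6 to 11 sites, 1 to 6 DKO-only, 0 to 1 WT-only, 2 to 4 called in all remaining libraries and log2 ratios of 0.51 to 1.51 for Tox. The 6 sites were without DKO replicate 1, the 6 DKO-only without DKO replicate 2 and the 4 without WT replicate 2. No share of all regions was computed with a library left out, so these counts are not read as a result either. The upstream Pdcd1 difference ran from -9.33 to -6.76. With the replicate number as a block the log2 ratios were 0.29 for Pdcd1 and 1.03 for Tox. No call could change, since none can pass. Where no alternative's construction shows it, the cause was not tested. Tox summits held 8 to 33 fragments, which limits their precision.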
